A study of Mus musculus with 7 samples.

Results

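The lipid droplet and triglyceride storage genes examined here are 10 named genes, chosen from 22564 genes in a table of mouse liver RNA levels: Plin2, Plin4, Plin5, Cideb, Cidec, Lpin1, Lpin2, Dgat2, Pnpla2 and G0s2. They were picked with their levels in these same livers already known, so the differences between the groups given for them are a description and carry no test. Each of the 10 symbols stands on 1 line of the table, and all 10 passed the minimum level used for testing. The RNA came from livers of C57bl/6 mice that had received either PTH, the peptide hormone of the parathyroid gland, whose receptor raises cyclic AMP, or the buffer PBS. Of the 7 libraries 4 were PTH and 3 were PBS, and each is named here by its group and number. In the titles the groups are written C+P and C, and the labels do not say what C means, so a treatment common to both groups can be neither named nor left out. Age, sex, dose and time are not given in the labels used here, and they do not tie libraries to separate animals. The p-values therefore reflect only how far the libraries spread, which may be technical.

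Hepatocytes store surplus fatty acids as triglyceride in lipid droplets, which are coated by perilipins and enlarged by proteins of the CIDE family. Lipins convert phosphatidic acid to diacylglycerol, DGAT2 adds the last fatty acid to make triglyceride, and the lipase ATGL, encoded by Pnpla2, takes the first one off again. The product of G0s2 inhibits that lipase, and PLIN5 holds the lipase and its coactivator at the droplet surface, so storage and release are set by the same small group of proteins.

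The PTH livers had more Cidec, Plin2 and Dgat2 RNA and less Lpin1 RNA than the PBS livers, and for these 4 genes the groups did not overlap. Levels are in FPKM, fragments per kilobase of transcript, scaled by the fragments mapped in the library, and means are given ± SD (n = 4 PTH and 3 PBS libraries). Cidec averaged 15.8 ± 10.6 FPKM in PTH livers and 1.34 ± 1.27 FPKM in PBS livers. Plin2 averaged 431 ± 98.8 FPKM in PTH livers and 135 ± 45.8 FPKM in PBS livers, and Dgat2 averaged 90.8 ± 17.4 FPKM in PTH livers and 36.0 ± 8.36 FPKM in PBS livers. Lpin1 averaged 7.63 ± 2.19 FPKM in PTH livers and 52.7 ± 32.8 FPKM in PBS livers. The other 6 genes, Plin4, Plin5, Cideb, Lpin2, Pnpla2 and G0s2, had groups that overlapped. Of all 11861 genes tested, 32.9% did not overlap and were higher in PTH livers and 3.2% did not overlap and were lower, 36.1% in all. By the test used further below for other genes, 25.2% of all genes changed, or 7.71% after libraries were scaled to a common median. Since the members were chosen on this contrast, nothing is read from their own 3 and 1.

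The stretch around the transcription start is shown for Plin2, Cidec and Lpin1, whose levels did not overlap between the groups, and for Plin5, whose level relative to Plin2 did not. Each window is 300 bases, from 250 before the start to 50 after it, taken from RefSeq on GRCm38.p6 and written 5′ to 3′ on the minus strand, the strand of all 4 genes. Capitals mark AGGTCA, the half-site of nuclear receptors such as the PPAR family, or CACGTG, the E-box bound by factors such as USF and ChREBP, on either strand. The windows are chr4:86670010-86670309 for Plin2, chr17:56117499-56117798 for Plin5, chr6:113435711-113436010 for Cidec and chr12:16610917-16611216 for Lpin1.
Plin2: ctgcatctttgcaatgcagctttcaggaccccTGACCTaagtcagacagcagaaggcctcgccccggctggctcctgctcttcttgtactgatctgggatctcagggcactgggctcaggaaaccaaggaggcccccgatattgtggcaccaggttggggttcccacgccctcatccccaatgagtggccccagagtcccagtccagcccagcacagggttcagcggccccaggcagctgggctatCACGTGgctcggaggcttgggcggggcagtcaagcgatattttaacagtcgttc
Plin5: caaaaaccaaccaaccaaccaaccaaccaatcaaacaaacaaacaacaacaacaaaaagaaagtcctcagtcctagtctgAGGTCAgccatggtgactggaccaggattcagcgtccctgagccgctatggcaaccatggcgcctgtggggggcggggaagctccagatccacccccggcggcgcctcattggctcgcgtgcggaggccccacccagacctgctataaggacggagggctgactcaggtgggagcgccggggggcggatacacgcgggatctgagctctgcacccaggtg
Cidec: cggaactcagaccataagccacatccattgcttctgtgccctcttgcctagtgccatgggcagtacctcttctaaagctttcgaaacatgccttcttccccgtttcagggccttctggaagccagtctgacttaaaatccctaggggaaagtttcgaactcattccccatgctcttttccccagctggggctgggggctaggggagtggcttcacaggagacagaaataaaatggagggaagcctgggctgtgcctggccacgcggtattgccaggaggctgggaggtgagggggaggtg
Lpin1: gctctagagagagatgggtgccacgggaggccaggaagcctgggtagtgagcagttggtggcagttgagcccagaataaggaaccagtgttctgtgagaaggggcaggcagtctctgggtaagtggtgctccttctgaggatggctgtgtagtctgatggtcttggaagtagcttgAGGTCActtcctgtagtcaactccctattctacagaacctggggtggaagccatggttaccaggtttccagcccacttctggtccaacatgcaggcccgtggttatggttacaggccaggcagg

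RefSeq windows were matched for 9 of the 10 genes, all but Dgat2, 13 windows in all, and 5 letter patterns were searched on both strands. The AGGTCA half-site stood in a window of Plin2, Plin5 and Lpin1, and 16.3% of all 32851 such windows hold it. Shares are of single windows, while members are counted by gene and some have more than 1 window. The counts and shares are therefore not directly comparable. CACGTG stood in windows of Plin2 and Lpin2, against 7.15% of all windows. The half-site of the cyclic AMP response element, TGACG, stood in windows of Lpin2 and G0s2, against 20.8% of all windows; in Lpin2 it overlaps the E-box. No window of the 9 genes held the full element TGACGTCA, which 1.79% of all windows hold, or the PPAR element DR1, a pair of AGGTCA half-sites in the same direction with 1 base between them, which 0.0396% hold. A match is a description of the letters and not a bound site. Only exact letters within these windows were searched, so finding none does not show that a gene lacks such an element. The Lpin1 window lies around the start at 16610966, which is 21196 bases beyond the end of the Lpin1 locus listed in the table.

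Among the perilipins, Plin2 encodes the main droplet coat protein of hepatocytes. It measured 506, 483, 448 and 287 FPKM in PTH 1 to 4 and 114, 105 and 188 FPKM in PBS 1 to 3. The lowest PTH library, PTH 4, lay above the highest PBS library, PBS 3. The log2 difference of Plin2 (PTH minus PBS, of FPKM + 0.5) was 1.68 (SE 0.31), a ratio of means of 3.18, and it ran from 1.52 to 1.95 when 1 library was left out. Behind these levels stood 1399 to 4211 estimated reads in PTH libraries and 415 to 605 in PBS libraries, so this is the best sampled of the perilipins.

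Plin5 encodes a perilipin of tissues that oxidise fat. It measured 7.79, 3.57, 6.29 and 0.839 FPKM in PTH 1 to 4 and 10.1, 4.92 and 11.7 FPKM in PBS 1 to 3. PTH 1 and PTH 3 lay inside the PBS range, PTH 2 and PTH 4 below it, and the log2 difference was -1.08 (SE 0.56). It was -1.44 without PBS 2 and -0.54 without PTH 4, a library with 5 estimated reads of the gene. Plin4, known as a droplet protein of adipose tissue and muscle, was the lowest perilipin detected. It measured 0.835, 1.71 and 3.94 FPKM in PTH 1 to 3 and 8.65e-06 FPKM, under 1 estimated read, in PTH 4, against 2.61, 1.07 and 2.59 FPKM in PBS 1 to 3. The Plin4 groups overlapped, and its log2 difference of -0.63 (SE 0.63) was -1.12 without PTH 3 and -0.07 without PTH 4. The 2 genes are neighbours on chromosome 17, both on the minus strand, Plin4 from 56100591 to 56109803 and Plin5 from 56111601 to 56117596 (GRCm38, GENCODE M21), with 1797 bases between them. The table lists the locus of Plin4 also for Hdgfrp2, named Hdgfl2 in GENCODE M21. There the genes overlap only from 56100591 to 56100607, on opposite strands, and how far reads were split between them was not tested. Plin5 shares its locus with no other gene.

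Within a library the ratio of 2 genes is the same whatever single factor the library is scaled by, as in common-median scaling, though not under quantile scaling. The Plin5 level was 1.54%, 0.740%, 1.40% and 0.292% of the Plin2 level in PTH 1 to 4 and 8.85%, 4.71% and 6.22% of it in PBS 1 to 3. Every PTH library lay below every PBS library in this ratio, although the Plin5 levels themselves overlapped. The Plin2 levels alone did not overlap, and Plin2 was chosen on this contrast. Nothing is therefore read from the separation of this ratio or of the Plin2 share that follows. Plin2 made up 97.8% to 99.7% of the summed level of Plin2, Plin4 and Plin5 in PTH libraries and 90.0% to 94.6% in PBS libraries. Plin2 was thus the leading perilipin of the 3 in every library of both groups.

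**Figure D1:**
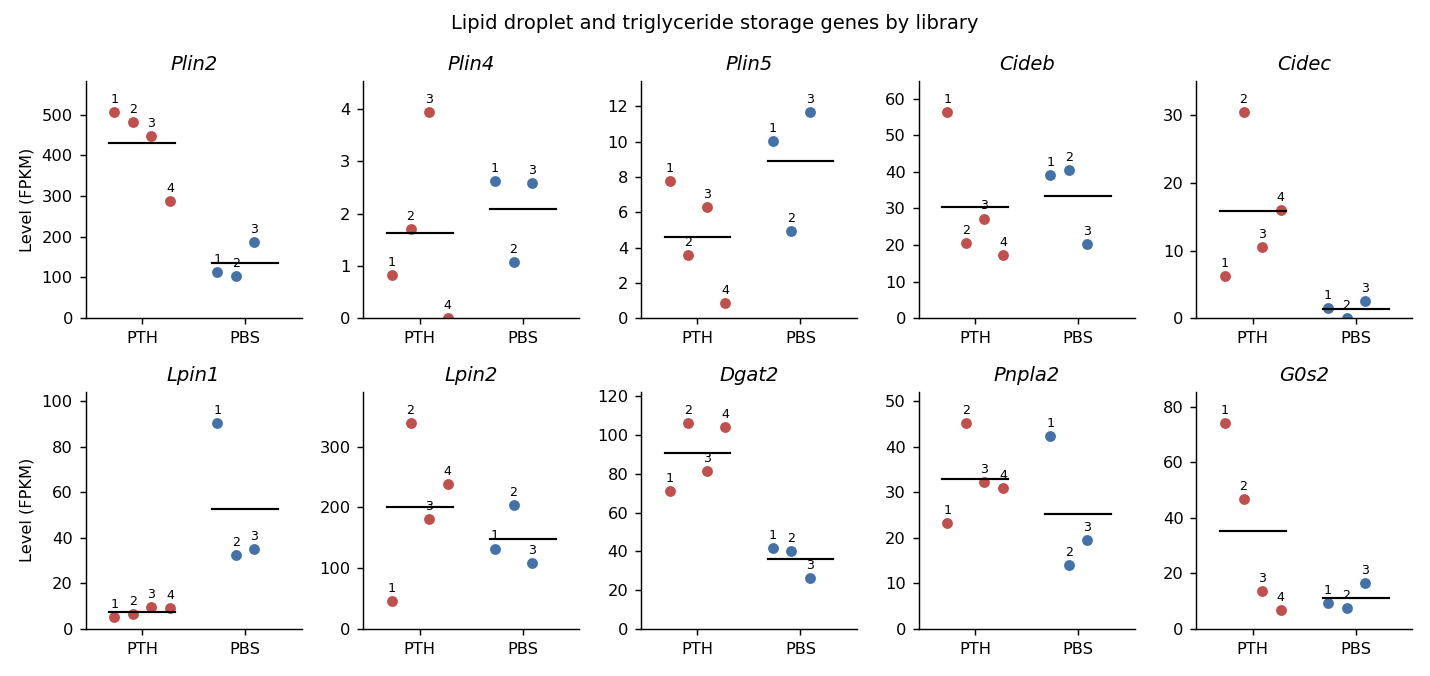
Level in FPKM (linear axes from 0) of the 10 genes in each library, PTH on the left and PBS on the right of each panel. Numbers are the library numbers and black lines the group means; Plin2, Cidec and Dgat2 lie higher and Lpin1 lower in all 4 PTH libraries than in any PBS library, and the other 6 genes overlap.

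The CIDE proteins act at contacts between droplets. Cidec, whose product drives droplet fusion and growth and which is known to be high in fatty mouse livers, measured 6.18, 30.5, 10.5 and 16.0 FPKM in PTH 1 to 4 and 1.48 and 2.53 FPKM in PBS 1 and PBS 3, and was listed at 0 in PBS 2. Every PTH library lay above every PBS library, with PTH 1 nearest to them. The log2 difference of Cidec was 3.27 (SE 0.62), the highest of the 10 genes, and ran from 2.51 without PBS 2 to 3.81 without PBS 3. The PBS levels rest on 5, 0 and 7 estimated reads and the PTH levels on 34 to 163, so the size of this difference is loosely set.

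Cideb, a relative that is expressed in liver and also takes part in the loading of lipid onto VLDL particles, did not follow Cidec. It measured 56.3, 20.6, 27.2 and 17.3 FPKM in PTH 1 to 4 and 39.2, 40.4 and 20.2 FPKM in PBS 1 to 3. The groups overlapped over most of their range, with a log2 difference of -0.22 (SE 0.41) that was -0.56 without PTH 1 and -0.0053 without PTH 4. Cidec made up 9.89%, 59.7%, 27.8% and 48.0% of the summed Cidec and Cideb level in PTH 1 to 4 and 3.63%, 0% and 11.1% in PBS 1 to 3. In this ratio PTH 1, the library with the highest Cideb level of all 7, lay within the PBS range, and the other PTH libraries lay above it. Cideb overlaps Nop9 on the opposite strand on chromosome 14, from 55754050 to 55755500, and no strand use is given in the sources used here, so reads of that stretch cannot be told apart. Nop9 measured 3.64 to 5.96 FPKM in PTH libraries and 2.05 to 2.12 FPKM in PBS libraries.

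Of the enzymes that build triglyceride, Dgat2 measured 71.1, 106, 81.5 and 104 FPKM in PTH 1 to 4 and 41.6, 40.0 and 26.4 FPKM in PBS 1 to 3. The lowest PTH value was above the highest PBS value, and neither group spread far, with a highest over lowest value of 1.497 in PTH libraries and 1.576 in PBS libraries, the narrowest of the 10 genes in both. The log2 difference was 1.33 (SE 0.28), and it ran from 1.13 to 1.45 with 1 library left out. The table lists the Dgat2 locus, which spans 794623 bases, also for 7 other genes.

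The lipins went separate ways. Lpin1, whose product is a phosphatidate phosphatase and in the nucleus a coactivator with PPAR-alpha in mouse liver, measured 5.03, 6.64, 9.71 and 9.16 FPKM in PTH 1 to 4 and 90.5, 32.3 and 35.2 FPKM in PBS 1 to 3. All PTH libraries were far below all PBS libraries, and PBS 1 stood above the other PBS libraries. The log2 difference was -2.59 (SE 0.38), the lowest of the 10 genes, or -2.12 without PBS 1. Lpin2, the other lipin of liver, measured 46.5, 340, 181 and 238 FPKM in PTH 1 to 4 and 132, 203 and 108 FPKM in PBS 1 to 3. The PTH libraries held both the lowest and the highest Lpin2 values of all 7, and the log2 difference of 0.18 (SE 0.56) ran from -0.17 without PTH 2 to 0.78 without PTH 1.

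Lpin1 made up 9.75%, 1.92%, 5.09% and 3.70% of the summed Lpin1 and Lpin2 level in PTH 1 to 4 and 40.6%, 13.7% and 24.6% in PBS 1 to 3. No PTH library reached the lowest PBS share, while Lpin2 was the higher of the pair in all 7 libraries. The Lpin1 levels alone did not overlap, so this share is not a separate result. The table lists the Lpin2 locus, which spans 621577 bases, also for 7 other genes, and GENCODE M21 places the non-coding gene Gm26561 over the whole of Lpin2 on the same strand, so Lpin2 levels are uncertain. Lpin1 shares its locus with no other gene.

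Of the genes of triglyceride release, Pnpla2 measured 23.2, 45.2, 32.3 and 30.9 FPKM in PTH 1 to 4 and 42.2, 13.98 and 19.6 FPKM in PBS 1 to 3. PTH 2 and PBS 1 were the highest and the groups overlapped, with a log2 difference of 0.49 (SE 0.37) that was 0.15 without PBS 2 and 0.93 without PBS 1. G0s2, which encodes the inhibitor of that lipase, measured 74.3, 46.7, 13.5 and 6.74 FPKM in PTH 1 to 4 and 9.28, 7.45 and 16.5 FPKM in PBS 1 to 3. PTH 1 and PTH 2 lay above all PBS libraries, PTH 3 within their range and PTH 4 below them. The log2 difference of G0s2 was 1.16 (SE 0.67), from 0.62 without PTH 1 to 1.74 without PTH 4, and its highest PTH value was 11.03 times its lowest. The G0s2 level divided by the Pnpla2 level was 3.21, 1.03, 0.418 and 0.218 in PTH 1 to 4 and 0.220, 0.533 and 0.843 in PBS 1 to 3, so the PTH libraries reached from the bottom of the PBS range to well above it. G0s2 lies wholly within Lamb3 on the opposite strand in GENCODE M21, and Lamb3 measured 0.159 to 0.416 FPKM in PTH libraries and 0.0778 to 0.367 FPKM in PBS libraries, far under the G0s2 levels.

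**Figure D2:**
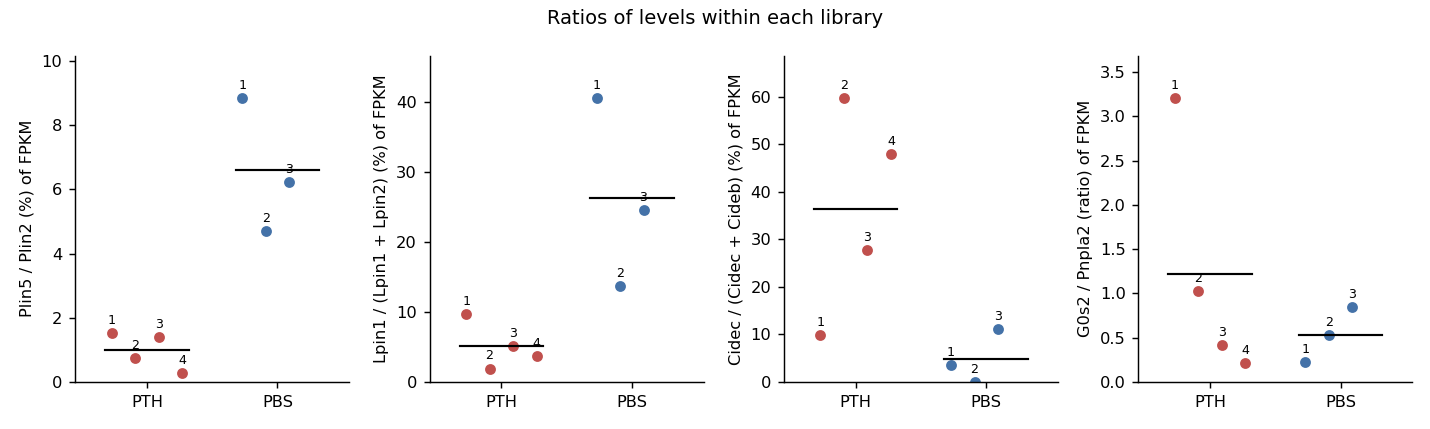
Ratios of FPKM levels within each library (linear axes from 0), PTH left and PBS right; numbers are library numbers and lines group means. Plin5 relative to Plin2, and the Lpin1 share, are lower in all 4 PTH libraries, while the Cidec share and G0s2 over Pnpla2 overlap between the groups.

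The PTH libraries differed among themselves. PTH 1 held the highest PTH value of Plin2, Plin5, Cideb and G0s2 and the lowest of Cidec, Lpin1, Lpin2, Dgat2 and Pnpla2. PTH 4 held the lowest PTH value of Plin2, Plin4, Plin5, Cideb and G0s2. Each of the 10 genes thus had its lowest PTH level in PTH 1 or PTH 4, 5 genes in each. Among the PBS libraries, PBS 2 was lowest for 7 of the 10 genes, the exceptions being Cideb, Lpin2 and Dgat2, which were lowest in PBS 3. Summed over all genes, FPKM came to 362790, 333046, 313050 and 265621 in PTH 1 to 4. This sum was 345239, 297885 and 265856 in PBS 1 to 3. The share of all genes highest or lowest in each library was not counted, so nothing is read from these numbers of members.

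The deposited scaled counts divided by the FPKM values grow with the transcript length that the level was computed over. For Plin4, Plin5, Cideb, Lpin1, Dgat2 and G0s2 this quotient was nearly the same in all libraries where it could be taken, for example 11.7 to 11.8 for Dgat2. For Plin2 it was 8.37 to 9.48 in PTH libraries and 6.68 to 7.20 in PBS libraries, without overlap. For Pnpla2 it was 8.25 to 9.30 in PTH libraries and 7.93 to 8.07 in PBS libraries, also without overlap. For Cidec it was 4.73 to 6.18 in PTH libraries and 4.48 to 6.25 in PBS libraries, and the groups overlapped. For Lpin2 it was 14.9 to 20.8 in PTH libraries and 12.5 to 16.9 in PBS libraries. GENCODE M21 has 4 coding transcripts of Plin2, of 551 to 1888 bases, and 3 of Lpin2, of 1586 to 5640 bases. By scaled counts, fitted as log2(value + 5), the log2 difference was 2.05 for Plin2, 0.49 for Lpin2 and 0.59 for Pnpla2, each above its value by FPKM, and 2.90 for Cidec, below it. It was -1.01 for Plin4, whose quotient was nearly constant, against -0.63 by FPKM, and this fit differs from that of FPKM in its pseudocount too.

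These differences stand against a shift of the whole table. The median log2 difference was 0.33 over the 10 genes, with 6 above 0 and 4 below, and 0.55 over all 11861 genes tested. Measured from that all-gene median, Cidec was 2.72, Plin2 1.13, Dgat2 0.78 and G0s2 0.61 above it, and Pnpla2 -0.06, Lpin2 -0.37, Cideb -0.77, Plin4 -1.18, Plin5 -1.63 and Lpin1 -3.14 below it. After scaling the libraries to a common median the log2 differences were 2.82 for Cidec, 1.06 for Plin2, 0.71 for Dgat2 and -3.19 for Lpin1, and those of Lpin2 (-0.44) and Pnpla2 (-0.13) turned negative. Under that scaling 4 of the 10 genes were above 0 and 6 below. Quantile scaling gave 1.44 for Plin2, 0.92 for Dgat2, -0.12 for Lpin2 and 0.01 for Pnpla2.

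**Figure D3:**
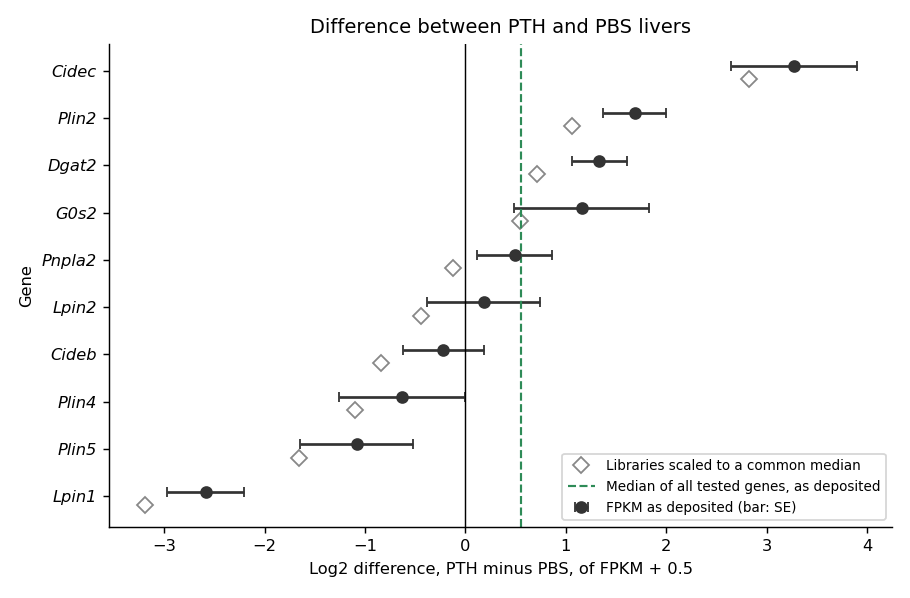
Log2 difference, PTH minus PBS, of FPKM + 0.5 for each of the 10 genes: filled points with SE bars as deposited, open diamonds with libraries scaled to a common median, dashed line the median of all tested genes (0.55). Cidec, Plin2, Dgat2 and G0s2 lie above the dashed line and the other 6 below it; Pnpla2 and Lpin2 change sign with the scaling.

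The rest of the lipid storage pathway was read from 6 lists that leave out the 10 genes, with 109 tested genes in all. By limma with Benjamini-Hochberg adjustment over all genes, 27 of the 109 rose and 2 fell, where 22.8% of all tested genes rose and 2.37% fell, and the median log2 difference of the 109 was 0.48 against 0.55 over all genes. Leaving out PBS 2 gave 14 rises, leaving out PBS 3 gave 13, leaving out PTH 2 gave 8 and leaving out PTH 3 gave 17; 1 gene fell when PBS 2 or PTH 2 was left out. With a common median 2 of the 109 rose and 5 fell, where 2.96% and 4.75% of all genes did; the whole table had 2709 higher and 281 lower calls as deposited and 351 and 563 with a common median. The 2 rises there were Ces1f and Gpd1l, so every other rise of these lists named below did not pass with a common median. The 5 falls were Fabp5, Foxo3, Foxo1, Lpl and Slc27a2. The last 3 did not pass as deposited and were named after their values were seen.

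Of 25 other lipid droplet proteins, 9 rose and 0 fell by limma, where 22.8% of all genes rose and 2.37% fell. After scaling to a common median, 0 rose and 0 fell. Dhrs1, a droplet-associated dehydrogenase, averaged 40.2 ± 17.9 FPKM in PTH livers and 11.1 ± 2.77 FPKM in PBS livers (log2 difference 1.72, SE 0.38, limma adjusted p = 0.0112). Plin3, the perilipin found in most cell types, averaged 28.7 ± 8.82 FPKM in PTH livers and 10.4 ± 2.77 FPKM in PBS livers (log2 difference 1.41, SE 0.30, limma adjusted p = 0.0107). Its mean was above those of Plin4 and Plin5 in both groups, but in PBS 3 Plin3 measured 7.65 FPKM and Plin5 11.7 FPKM. Neither Dhrs1 nor Plin3 passed with a common median (limma adjusted p = 0.0734 for Dhrs1 and 0.106 for Plin3). Hsd17b13, a droplet protein of hepatocytes, was the most abundant of the list, at 196 ± 31.2 FPKM in PTH livers and 98.8 ± 28.4 FPKM in PBS livers (log2 difference 1.004, SE 0.28, limma adjusted p = 0.0261); its limma adjusted p was between 0.0641 and 0.0931 without PBS 2, PBS 3, PTH 2 or PTH 3. Ldah, a droplet-associated hydrolase, had a log2 difference of 1.33 (SE 0.44, limma adjusted p = 0.0478), and its limma adjusted p was between 0.0602 and 0.170 without PBS 1, PBS 3, PTH 1, PTH 2 or PTH 3. Hilpda, which encodes another ATGL inhibitor, averaged 7.17 ± 3.75 FPKM in PTH livers and 4.92 ± 4.005 FPKM in PBS livers and did not pass (limma adjusted p = 0.402).

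Of 18 other enzymes of triglyceride synthesis, 7 rose and 0 fell, where 22.8% of all genes rose and 2.37% fell. After scaling to a common median, 1 rose and 0 fell. Gpd1l, a relative of the glycerol phosphate dehydrogenase gene Gpd1, averaged 6.89 ± 1.79 FPKM in PTH livers and 1.66 ± 0.164 FPKM in PBS livers (log2 difference 1.75, SE 0.30, limma adjusted p = 0.00525, and 0.0308 with a common median). Agpat5, an acyltransferase of the step before the lipins, had a log2 difference of 1.79 (SE 0.43, limma adjusted p = 0.0159), which became 0.0572 when PBS 3 was left out and 0.0560 when PTH 2 was. Ctdnep1, which encodes a phosphatase that acts on lipins, averaged 24.2 ± 4.47 FPKM in PTH livers and 10.2 ± 2.60 FPKM in PBS livers (log2 difference 1.22, SE 0.27, limma adjusted p = 0.0126). With a common median its log2 difference was 0.61 (limma adjusted p = 0.225). The table lists the Ctdnep1 locus for another gene too. Gpd1 was the most abundant, at 81.0 ± 31.4 FPKM in PTH livers and 36.1 ± 9.43 FPKM in PBS livers (limma adjusted p = 0.0416), and its limma adjusted p was between 0.0568 and 0.141 with any library but PTH 3 left out. Gpam, the acyltransferase of the first step, and Dgat1, the other enzyme of the last step, did not pass. Gpam averaged 18.8 ± 13.4 FPKM in PTH livers and 15.0 ± 12.1 FPKM in PBS livers, and Dgat1 averaged 6.59 ± 2.34 FPKM in PTH livers and 3.35 ± 1.44 FPKM in PBS livers (limma adjusted p = 0.0825).

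Of 13 other genes of triglyceride breakdown, 6 rose and 0 fell, where 22.8% of all genes rose and 2.37% fell. After scaling to a common median, 1 rose and 0 fell. The carboxylesterase Ces1f averaged 40.0 ± 12.7 FPKM in PTH livers and 4.26 ± 3.10 FPKM in PBS livers (log2 difference 3.40, SE 0.54, limma adjusted p = 0.00386), and its relative Ces1d, a triglyceride hydrolase, averaged 41.3 ± 9.56 FPKM in PTH livers and 13.2 ± 8.496 FPKM in PBS livers (log2 difference 1.88, SE 0.49, limma adjusted p = 0.0203, and 0.0656 without PTH 2). Ces1f and Ces1d are members of 1 gene family, and the sources used here do not say how reads matching both were counted, so their levels are uncertain. Abhd6, a monoacylglycerol lipase, averaged 9.25 ± 2.95 FPKM in PTH livers and 2.49 ± 0.774 FPKM in PBS livers (log2 difference 1.67, SE 0.35, limma adjusted p = 0.00960, and 0.0571 with a common median). Abhd5, which encodes the ATGL coactivator CGI-58, averaged 13.7 ± 1.96 FPKM in PTH livers and 5.70 ± 2.31 FPKM in PBS livers (log2 difference 1.26, SE 0.32, limma adjusted p = 0.0190, with 0.0673 without PBS 2 and 0.0587 without PTH 2). The most abundant, Aadac, a lipase of the endoplasmic reticulum, averaged 77.7 ± 40.6 FPKM in PTH livers and 48.2 ± 14.6 FPKM in PBS livers and did not pass (limma adjusted p = 0.278).

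Of 15 genes of fatty acid uptake and binding, 1 rose and 1 fell, where 22.8% of all genes rose and 2.37% fell. After scaling to a common median, 0 rose and 3 fell. Fabp5, a fatty acid binding protein of skin and macrophages among other cells, fell to 8.74 ± 2.15 FPKM in PTH livers, against 39.0 ± 22.2 FPKM in PBS livers (log2 difference -1.94, SE 0.40, limma adjusted p = 0.00944, and 0.00829 with a common median). Fabp2 rose (log2 difference 1.45, SE 0.45, limma adjusted p = 0.0363), with a limma adjusted p between 0.0611 and 0.116 with any library but PTH 4 left out and with a locus that is also another gene's. Fabp1, the abundant liver form, averaged 1061 ± 839 FPKM in PTH livers and 442 ± 248 FPKM in PBS livers and did not pass (limma adjusted p = 0.184). Of 15 genes of triglyceride secretion, 3 rose and 0 fell as deposited, and 0 rose and 0 fell with a common median. Sar1a encodes a GTPase of the vesicles that leave the endoplasmic reticulum, and Mia2 a cargo factor of those vesicles. The 3 rises were Sar1a, the motor gene Kif5b and Mia2. Their log2 differences were 1.08, 0.95 and 0.89, and each missed the threshold without PBS 2 or without PTH 2, with a limma adjusted p between 0.0528 and 0.0833. Sar1a and Mia2 also missed it without PBS 3 (0.0768 and 0.0651), Kif5b without PBS 1 (0.0581) and Mia2 without PTH 3 (0.0716). Apoc3, the most abundant of the list, averaged 966 ± 269 FPKM in PTH livers and 679 ± 249.3 FPKM in PBS livers and did not pass.

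Of 23 regulators, 1 rose and 1 fell, where 22.8% of all genes rose and 2.37% fell. After scaling to a common median, 0 rose and 2 fell. Nr3c1, the glucocorticoid receptor gene, averaged 25.6 ± 1.69 FPKM in PTH livers and 12.3 ± 3.59 FPKM in PBS livers (log2 difference 1.07, SE 0.27, limma adjusted p = 0.0189, with 0.0708 without PBS 3 and 0.0582 without PTH 2). Foxo3, a transcription factor held in check by insulin, fell to 6.22 ± 1.64 FPKM in PTH livers, against 20.4 ± 11.6 FPKM in PBS livers (log2 difference -1.53, SE 0.38, limma adjusted p = 0.0177, with 0.0652 without PBS 2 and 0.0587 without PTH 2). Ppara, the receptor that drives many droplet genes in mouse liver, averaged 17.7 ± 10.7 FPKM in PTH livers and 14.6 ± 4.55 FPKM in PBS livers, and Pparg, its relative of adipose tissue, averaged 4.42 ± 3.47 FPKM in PTH livers and 1.85 ± 1.11 FPKM in PBS livers. Neither passed (limma adjusted p = 0.974 for Ppara and 0.193 for Pparg). Hnf4a, the most abundant regulator, whose locus the table lists for another gene too, averaged 75.0 ± 25.7 FPKM in PTH livers and 93.2 ± 28.6 FPKM in PBS livers and did not pass.

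**Figure D4:**
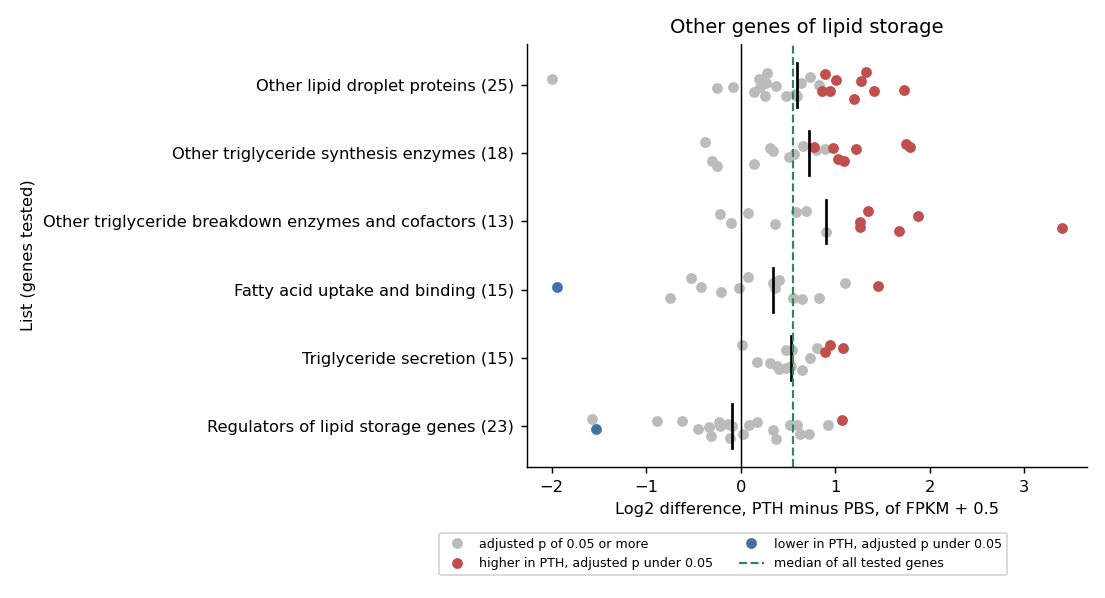
Log2 difference, PTH minus PBS, of FPKM + 0.5 for the 109 tested genes of 6 lists, 1 point a gene; black bars are list medians and the dashed line the median of all tested genes. Red points rose and blue points fell at a limma adjusted p under 0.05; the breakdown list has the highest median (0.91) and the regulators the lowest (-0.09).

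Genes with profiles close to the members were found by the root mean square distance between row-centred log2 profiles over the 7 libraries, among 11829 tested symbols. Predicted genes, with symbols of Gm and digits or ending in Rik, were passed over, so one of them could lie nearer. Nearest to Cidec were Tnfrsf12a, the receptor gene of the cytokine TWEAK, at 0.26 log2 units, Gclc, which encodes the first enzyme of glutathione synthesis, at 0.32, and Tsc22d2 at 0.41. Tnfrsf12a measured 50.4, 294, 124 and 165 FPKM in PTH 1 to 4 and 26.0, 6.01 and 31.6 FPKM in PBS 1 to 3. Like Cidec it was highest in PTH 2 and lowest in PBS 2, but it was picked for that likeness. Nearest to Lpin1 were Saa4, a gene of the serum amyloid A family, at 0.43, Csrp3 at 0.46 and D17H6S56E-5 at 0.46. Csrp3, a gene of striated muscle, measured at most 0.305 FPKM in PTH libraries and 2.18 to 4.45 FPKM in PBS libraries.

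The tissue label was checked against markers. For comparison with the marker counts, 22.8% of all 11861 tested genes rose and 2.37% fell by limma. After scaling to a common median, 2.96% of all genes rose and 4.75% fell. All 10 hepatocyte markers were detected; by limma 1 rose and 4 fell, with a summed level of 22921 to 35929 FPKM in PTH libraries and 17103 to 35704 FPKM in PBS libraries. Of 12 adipocyte markers, 8 were listed at 0 in all 7 libraries, among them Adipoq, Lep, Retn, Cfd and Plin1. The sum of the other adipocyte markers, 44.0 to 94.2 FPKM in PTH libraries and 29.9 to 43.2 FPKM in PBS libraries, came from genes that are not limited to adipocytes, Fabp4, Lipe, Car3 and Acvr1c, of which Car3 rose (log2 difference 2.36, limma adjusted p = 0.0408, but 0.176 with a common median). Of 11 Kupffer cell and macrophage markers, 8 fell and 1 rose, with sums of 123 to 206 FPKM in PTH libraries and 224 to 297 FPKM in PBS libraries. Of 7 tested neutrophil markers 4 fell, with sums of 4.11 to 36.9 FPKM over all 10 in PTH libraries and 40.6 to 796 FPKM in PBS libraries, and Ly6g was listed at 0 throughout. Of 11 stellate cell markers 2 rose, with sums of 95.1 to 179 FPKM in PTH libraries and 108 to 120 FPKM in PBS libraries. Of 9 sinusoidal endothelial markers 2 rose, near the 22.8% of all genes that did, with sums of 99.1 to 136 FPKM in PTH libraries and 75.0 to 91.3 FPKM in PBS libraries. Of 6 erythroid markers 2 rose, with sums of 104 to 269 FPKM in PTH libraries and 61.0 to 116 FPKM in PBS libraries. With a common median, no marker of these lists rose, 1 stellate cell marker fell, and the numbers of hepatocyte, macrophage and neutrophil markers that fell were again 4, 8 and 4. The part of these shifts in the levels of the 10 genes was not tested, and in bulk tissue fewer cells of a type and less RNA per cell cannot be told apart. Estimated reads came to 1621721 to 3281516 in PTH libraries and 1200681 to 2556682 in PBS libraries. Depth thus differed among libraries, with ranges that overlapped between the groups, and its part was not tested.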

How the data were processed

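RNA levels of 7 mouse liver libraries, grouped as PTH or PBS by the treatment label, were taken from 1 table. Per the file headers, the authors deposited FPKM and a count for each gene; the submitters' processing notes name Bowtie 0.12.2 and the build mm8, while no quantifier is named in the sources used here. The loci span GENCODE M21 (GRCm38) genes within 5000 bases for 95% of 21839 matched genes, so positions are given from M21, or from RefSeq on GRCm38.p6 for promoters. The deposited count columns are a scaled signal, with 92.4% to 94.2% of values whole multiples (within 0.05) of a step per library, so no count test was run; values divided by the step are called estimated reads. Of all genes, 5877 share their locus with another. One line names no gene.

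A gene entered the fit if 3 or more libraries reached 0.5 FPKM. Its log2(FPKM + 0.5) was modelled on the group by limma (version 3.58.1, R version 4.3.3), using eBayes with a trend and robust variances, two-sided, with Benjamini-Hochberg adjustment over all tested genes and a threshold of 0.05. This scale understates changes of low genes. The fit was tested on simulated data as a check of the code only, with changes larger than most given here and no shift of the whole table. The members, lists and tests were chosen with earlier results of these data known. List genes were matched by symbol or gene ID, and named by rule: the 3 largest rises and falls past the threshold and the most abundant gene of each list, 7 genes in any case, and the 3 nearest profiles of the members with the highest and lowest difference. Alternatives were each library left out, the replicate number as a block, common-median and quantile scaling, scaled counts (minimum and pseudocount 5), a minimum of 1 FPKM or none, pseudocounts of 1 and 0.1, and limma without trend and robust. Estimated reads carry counting error and no molecular identifiers are known. Figures used matplotlib 3.10.9 under Python 3.11.15.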

Additional observations from a re-analysis of the deposited data

How the results depend on the processing

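The median log2 difference of the 10 genes, 0.33 as deposited, was 0.12 to 0.63 with 1 library left out, -0.29 with common-median scaling and -0.05 with quantile scaling. Of the other genes of the pathway, 27 rose and 2 fell as deposited; 8 to 24 rose and 1 to 3 fell with 1 library left out, 2 rose and 5 fell with a common median, and 2 rose and 4 fell with quantile scaling. Of all genes, 2990 changed as deposited, 1120 to 3171 with 1 library left out, 914 with a common median and 977 with quantile scaling. Both scalings remove the shift of the whole table; the cause of the other changes was not tested.

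With the replicate number as a block, over the 6 libraries that share a number, 1764 genes changed, 21 genes of the pathway rose and 1 fell. The correlations of same-numbered libraries' deviations from their group means were -0.03, -0.16 and 0.01. Those of libraries with unlike numbers ran from -0.20 to 0.21. With so few pairs, these values cannot tell whether the numbers pair the samples, and the labels do not say. No filter, a minimum of 1 FPKM, both other pseudocounts, scaled counts and limma without trend and robust kept these counts within 1.5 times. Levels resting on few reads, such as Cidec in PBS libraries and Plin4 and Plin5 in PTH 4, limit the precision of their differences.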
